A study of Ovis aries with 6 samples.

Results

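The insulin-like growth factor (IGF) and growth hormone axis was represented by IGF2, IGFBP1 and GHR, which were measured in body side skin of 2 sheep breeds that differ in wool fibre. The members were every non-control probe whose array annotation carries a sheep RefSeq mRNA of one of these genes. This rule takes every such probe whatever its values, but the genes were chosen with earlier results of these data known. They were 4 probes for 3 genes, of 734 probes for 476 genes named in the same way and of 15008 different probes on the array. IGF2 had 2 probes, A_70_P016796 and A_70_P029956, both annotated to NM_001009311. GHR had the probe A_70_P051416 (NM_001009323) and IGFBP1 the probe A_70_P069081 (NM_001145177). Each probe was a single spot on each array. The RefSeq annotation lists 4 transcripts of IGF2, 11 of GHR and 1 of IGFBP1, and which of these each probe reads is not known from the sources used here.

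Growth hormone from the pituitary binds GHR, a cell surface receptor without a kinase of its own, which signals through JAK2 and STAT5 and raises IGF1 production in liver and other tissues. IGF1 and IGF2 are small secreted peptides that act mainly through the IGF1 receptor, while the IGF2 receptor takes IGF2 up for degradation. IGF2 is an imprinted gene, expressed mostly from the paternal copy, and is best known as a growth factor of the fetus. IGFBP1 is one of the secreted binding proteins that hold IGFs in extracellular fluid, and its transcription in liver is lowered by insulin. In skin, IGFs are made by dermal cells, including those of the hair follicle papilla, and IGF1 is known to support follicles in their growing phase.

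The groups were Aohan fine wool sheep, which grow fine wool, and small tail Han sheep, which grow coarse wool, with 3 animals and 3 arrays each. All were 12 months old, kept in pens, and full-thickness skin of about 1 cm2 was taken in August, described in the study as the growing phase of the follicle. Each breed was 1 ram and 2 ewes by 1 sire, the ram cannot be told from the labels, and breed cannot be told apart from the sire's family. Each breed was also scanned in a session of its own, so that breed and scan session cannot be told apart. The scanner software made a surface correction on all 3 Aohan arrays but on only 1 small tail Han array, replicate 1. Full-thickness skin mixes epidermis, follicles, glands, dermis and blood, so fewer cells of a type and less RNA per cell cannot be told apart in any value below.

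Signals are log2 of the background-subtracted Cy3 intensity minus the 75th percentile of the same array, so that 0 stands for the 75th percentile (1103 to 2309 intensity units over the 6 arrays). Between 10774 and 13418 probes per array were well above background by the mark of the scanner software, and no spot was saturated. The labelled tissue was checked on the follicle keratins KRT25 and KRT27 and the collagen-binding proteoglycan DCN of dermal fibroblasts, which were well above background on all 6 arrays. A probe was tested when well above background on at least 3 arrays, and passing meant an adjusted p (Benjamini-Hochberg, over all 12481 tested probes) under 0.05 in limma. All 4 probes of IGF2, IGFBP1 and GHR were tested, and this filter does not ask which breed is high.

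IGF2 lay higher in the Aohan breed at both of its probes, and 1 of the 2 passed the test. IGFBP1 lay lower in Aohan sheep and GHR overlapped between the breeds, and neither passed. Thus 1 of the 4 probes passed, beside 15.2% of all tested probes. The unadjusted p was under 0.05 at 3 of the 4, beside 29.4% of all tested probes. Both breeds were free of overlap at 3 of the 4, beside 34.2% of all tested probes. With so few members these shares set nothing apart from the rest of the array. The number of the 4 that passed was 2 with quantile normalization (17.3% of all tested probes), normexp (13.8%), the series matrix values (16.7%) and intensities before the surface correction (14.9%).

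**Figure D1:**
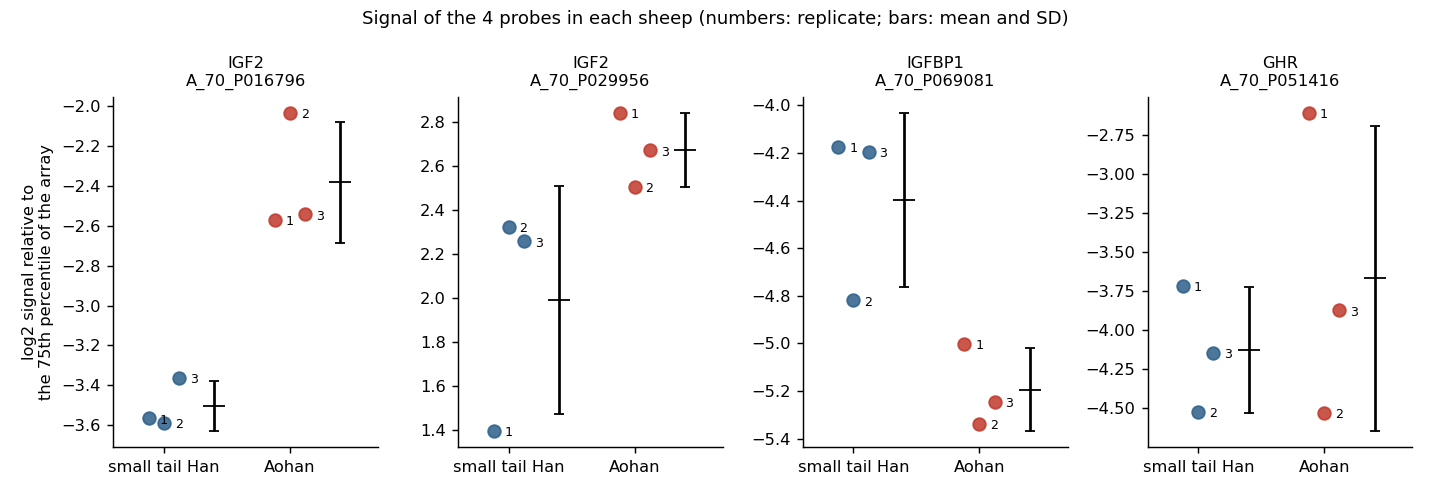
Log2 signal relative to the 75th percentile of the array in each sheep at the 4 probes (points, with the replicate number; 3 sheep per breed; bars show the mean with the SD; each panel has its own vertical axis, which need not include 0). The Aohan sheep lie above the small tail Han sheep at both IGF2 probes and below them at IGFBP1, while the breeds overlap at GHR.

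The IGF2 probe A_70_P016796 separated the breeds most clearly. Its log2 signal was -3.56, -3.59 and -3.36 in small tail Han replicates 1, 2 and 3, and -2.57, -2.03 and -2.54 in Aohan replicates 1, 2 and 3. All 3 Aohan sheep lay above all 3 small tail Han sheep, with a gap of 0.79 on the log2 scale between the nearest animals of both breeds, and Aohan replicate 2 was the highest. The means were -2.38 ± 0.30 (SD, n = 3) for Aohan sheep and -3.51 ± 0.12 (SD, n = 3) for the small tail Han breed. The difference of 1.12 (SE 0.21, limma adjusted p = 0.00871) corresponds to 2.18-fold, with a 95% interval of 1.57-fold to 3.02-fold. Of all tested probes, 8.03% differed by more than this in either direction. The exact permutation test gave p = 0.1 (two-sided), the smallest that 3 against 3 allow. The call was lost with the methods' t-test and Benjamini-Hochberg adjustment (adjusted p = 0.0570), which 5.73% of all probes passed.

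The spot behind this probe was dim but measured on every array. Its raw brightness was 4.91 to 5.44 times the local background in small tail Han sheep and 6.41 to 14.1 times in Aohan sheep. The error that the scanner software gave for the spot was 10.02% to 12.3% of the signal. The unscaled processed intensity was 501 on Aohan replicate 2, while the other 5 arrays lay between 153 and 195. Aohan replicates 1 and 3, at 186 and 194, thus lay within the small tail Han range before scaling and outside it after, since their arrays had the lowest 75th percentiles (1103 and 1131). Without Aohan replicate 2 the difference was 0.95 (adjusted p = 0.0211).

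The other IGF2 probe, A_70_P029956, was brighter over its background, at 122 to 168 times the local background in small tail Han sheep and 167 to 272 times in Aohan sheep. Its log2 signal was 1.40, 2.32 and 2.26 in small tail Han replicates 1, 2 and 3, and 2.84, 2.51 and 2.67 in Aohan replicates 1, 2 and 3. The breeds did not overlap here either, but the gap was 0.18 on the log2 scale, and small tail Han replicate 1 stood well below the other small tail Han sheep. Before scaling, Aohan replicates 1 and 3 (processed intensity 7918 and 7203) lay within the small tail Han range of 6081 to 9202 at this probe too. The means were 2.67 ± 0.17 (SD, n = 3) for Aohan sheep and 1.99 ± 0.52 (SD, n = 3) for the small tail Han breed. The difference of 0.68 (SE 0.25), or 1.60-fold with a 95% interval of 1.08-fold to 2.38-fold, did not pass in limma (adjusted p = 0.107).

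The call at A_70_P029956 depended on the scaling and background correction. It passed in limma with quantile normalization (difference 0.78, adjusted p = 0.0345), with the normexp background correction (0.85, adjusted p = 0.00214) and with the authors' own normalized values (0.70, adjusted p = 0.0336). It also passed with intensities taken before the surface correction (0.84, adjusted p = 0.0471), an alternative chosen after seeing the data. Without small tail Han replicate 1 the difference was 0.38 (adjusted p = 0.172), and it kept its sign under each of the 15 alternatives.

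The 2 probes of IGF2 gave the same direction, and a difference in size between them was not shown. The difference at A_70_P016796 exceeded that at A_70_P029956 by 0.44 on the log2 scale (exact permutation test, two-sided, p = 0.4). Leaving out small tail Han replicate 1 raised this excess to 0.71, and leaving out Aohan replicate 2 brought it to 0.19. With normexp the sizes were 0.83 and 0.85. Signals of different probes cannot be set against each other, so which probe reads more IGF2 RNA is not known.

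**Figure D2:**
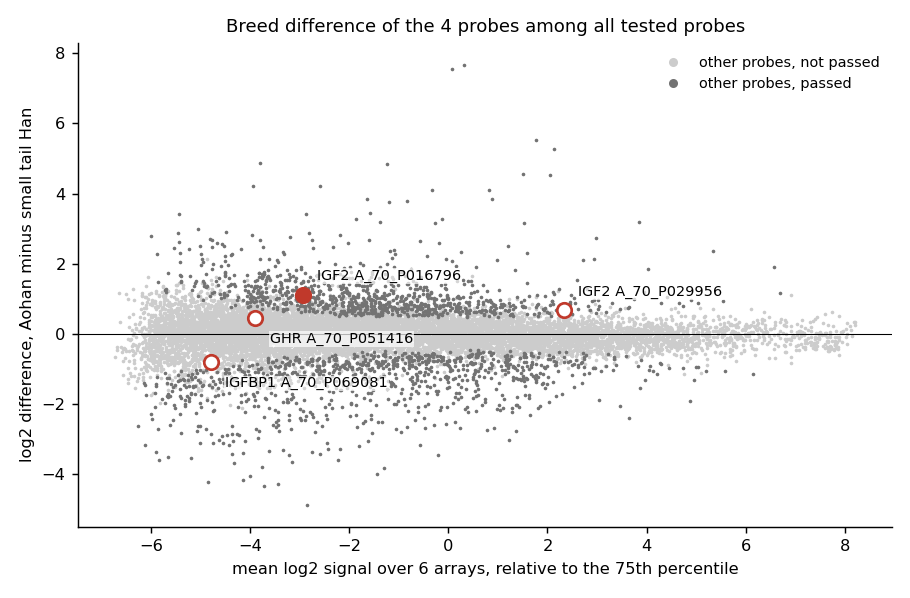
Breed difference on the log2 scale (Aohan minus small tail Han, vertical) for all tested probes, plotted over mean log2 signal relative to the 75th percentile (horizontal, 6 arrays); large circles are the IGF2, IGFBP1 and GHR probes, filled where adjusted p was under 0.05, and small dark points are other probes that passed. IGF2 A_70_P016796 (1.12) lies among the probes that passed, while GHR (0.46), IGFBP1 (-0.80) and IGF2 A_70_P029956 (0.68) lie among those that did not.

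IGFBP1, the binding protein, lay on the other side of 0. Its log2 signal was -4.18, -4.82 and -4.20 in small tail Han replicates 1, 2 and 3, and -5.001, -5.34 and -5.24 in Aohan replicates 1, 2 and 3. All Aohan sheep lay below all small tail Han sheep, and small tail Han replicate 2 came within 0.18 of the highest Aohan sheep. The means were -5.19 ± 0.17 (SD, n = 3) for Aohan sheep and -4.40 ± 0.37 (SD, n = 3) for the small tail Han breed. The difference of -0.80 (SE 0.28), a signal 1.74-fold higher in small tail Han sheep with a 95% interval on the log2 scale of -1.43 to -0.16, did not pass in limma (adjusted p = 0.0932).

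This was the dimmest of the 4 spots relative to its own background, at 2.28 to 2.59 times the local background on Aohan arrays and 2.85 to 3.53 times on small tail Han arrays. All 3 small tail Han arrays and 2 of 3 Aohan arrays were well above background, the exception being Aohan replicate 1. The error of the spot reached 22.5% of the signal there. With normexp the difference was -0.27 (adjusted p = 0.834), and it was -0.64 (adjusted p = 0.190) before the surface correction. The breeds overlapped under both.

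GHR, the growth hormone receptor, did not separate the breeds. Its log2 signal was -3.72, -4.52 and -4.14 in small tail Han replicates 1, 2 and 3, and -2.60, -4.53 and -3.87 in Aohan replicates 1, 2 and 3. The highest value (replicate 1) and the lowest value (replicate 2) of all 6 sheep were both from Aohan sheep, whose range spanned 3.79-fold against 1.75-fold in small tail Han sheep. The means were -3.67 ± 0.98 (SD, n = 3) and -4.13 ± 0.40 (SD, n = 3). The difference of 0.46 (SE 0.45) did not pass in limma (adjusted p = 0.551), and its 95% interval of 0.67-fold to 2.81-fold covers both a fall and a rise.

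The within-breed spread of GHR, a pooled SD of 0.75 on the log2 scale, was larger than that of 95.8% of the tested probes, where the median was 0.28. The corresponding shares were 74.5% for IGF2 A_70_P029956, 53.0% for IGFBP1 and 37.5% for IGF2 A_70_P016796. The spot was well above background on all 6 arrays, at 2.70 to 4.99 times the local background, and its error was 10.49% to 17.0% of the signal. Without Aohan replicate 1 the GHR difference turned to -0.071 (adjusted p = 0.915), and without Aohan replicate 2 it was 0.89 (adjusted p = 0.194), so its size and sign rested on single animals.

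**Figure D3:**
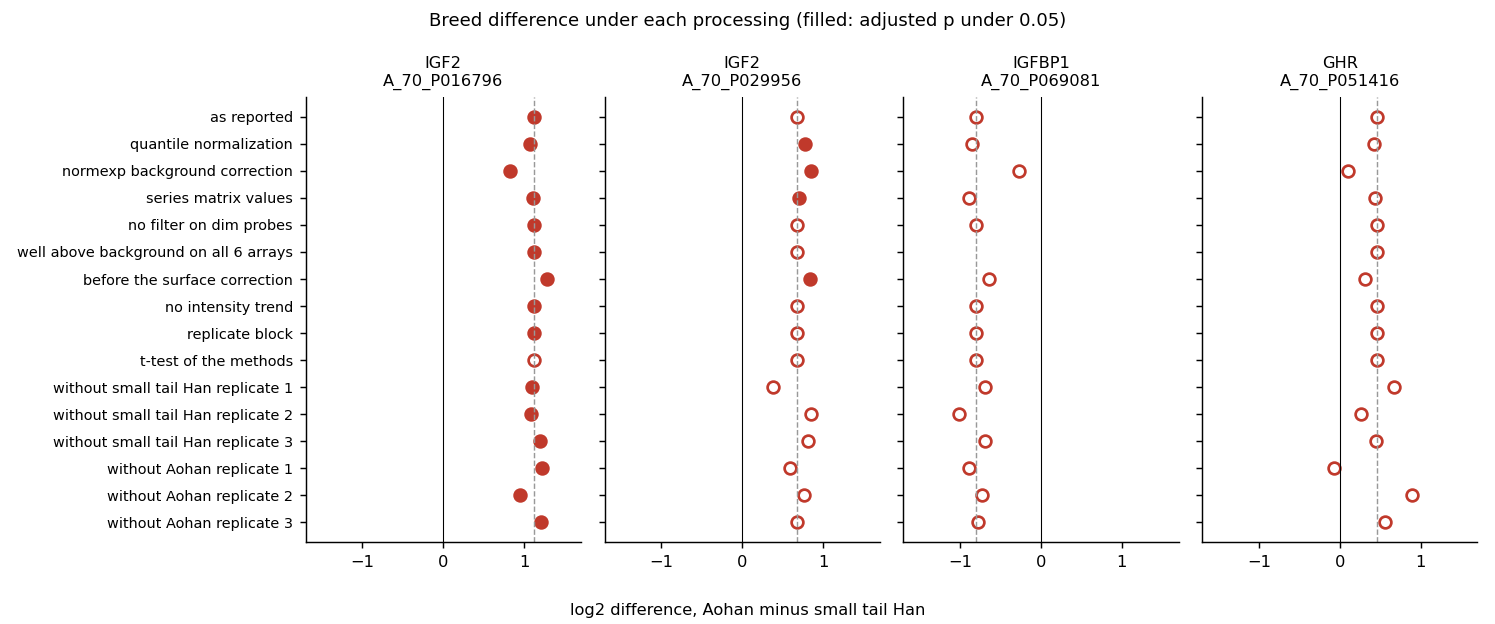
Log2 difference (Aohan minus small tail Han) at the 4 probes under each processing, 1 row per processing (filled circles, adjusted p under 0.05; dashed line, value as reported; the horizontal axis is the same in all panels; IGFBP1 has no value where all 6 arrays must be above background). IGF2 A_70_P016796 is filled in all rows but that of the methods' t-test, IGF2 A_70_P029956 is filled in 4, and IGFBP1 and GHR in none.

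The rest of the pathway was read from 6 lists of growth hormone and IGF genes with 102 different genes, of which 20 were named on the array and 15 were tested, the members included. Taking the probe of highest mean signal for each gene, 0 of the 15 were higher and 1 was lower in Aohan sheep in limma, and 1 was higher (IGF2) and 1 lower at any probe, beside 15.2% of all tested probes. The median difference was 0.09, beside 0.02 over all tested probes. The 5 genes that were not tested were the hormone GH, the ghrelin receptor GHSR, ghrelin (GHRL), the leptin receptor LEPR and IGFBP3. No array had GH or GHSR well above background, and no receptor of IGF1 or IGF2 was named on the array.

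In the list of growth hormone, prolactin (PRL), their regulators and receptors 0 of 5 tested genes passed, beside 15.2% of all tested probes. These were GHR, GHRHR, PRL, SST and SSTR5. Of the 2 tested IGF ligands, IGF1 and IGF2, 0 passed at the probe of highest mean signal, beside the same 15.2%. At any probe 1 passed, which was IGF2, with 2 probes that could pass. IGF1, the ligand that growth hormone induces, was at -3.30, -2.93 and -2.42 in small tail Han replicates 1, 2 and 3 and at -2.54, -3.14 and -2.68 in Aohan replicates 1, 2 and 3. The breeds overlapped, with a difference of 0.09 (SE 0.27, limma adjusted p = 0.855) whose sign turned without small tail Han replicate 1 (-0.11) or Aohan replicate 1 (-0.03). GHRHR, the receptor of growth hormone releasing hormone, differed by 0.37 (adjusted p = 0.251). SST, which restrains growth hormone release, differed by 0.47 (adjusted p = 0.359), and SSTR5, one of its receptors, by -0.64 (adjusted p = 0.0682). At SSTR5 the breeds did not overlap at 1 probe but did at the other (difference -0.50, adjusted p = 0.393), where it was -0.056 without Aohan replicate 1. The first SSTR5 probe passed when small tail Han replicate 1 (-0.77, adjusted p = 0.0381) or Aohan replicate 2 (-0.79, adjusted p = 0.0419) was left out.

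The IGF binding proteins had negative differences at all 3 tested genes, and 0 of 3 passed, beside 15.2% of all tested probes. The median was -0.46, beside 0.02 over all tested probes. IGFBP2, which binds IGF2 with high affinity, was at 4.66, 4.71 and 5.14 in small tail Han replicates 1, 2 and 3 and at 4.42, 4.27 and 4.53 in Aohan replicates 1, 2 and 3. All Aohan sheep lay below all small tail Han sheep at this probe, with a difference of -0.43 (SE 0.20, limma adjusted p = 0.185), while the breeds overlapped at its other probe (-0.29, adjusted p = 0.515). With normexp IGFBP2 passed at the first of these probes (-0.72, adjusted p = 0.0459). IGFBP5, which binds IGFs and extracellular matrix, had a difference of -0.46 (SE 0.21, adjusted p = 0.184) without overlap at 1 probe, while the other gave -0.34 (adjusted p = 0.361) with overlap. With normexp these IGFBP5 differences shrank to -0.23 (adjusted p = 0.754) and -0.098 (adjusted p = 0.945), and that of IGFBP1 to -0.27. IGFBP3, the main carrier of IGFs in blood and the neighbour of IGFBP1 in the reference annotation, was well above background on 1 of 3 arrays in each breed.

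**Figure D4:**
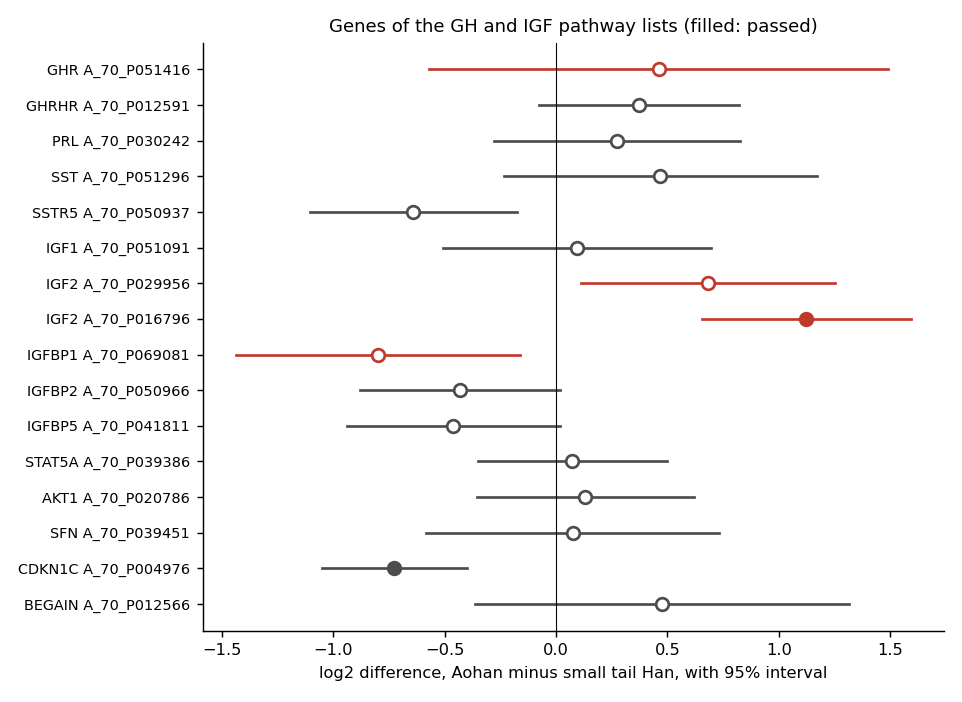
Log2 difference (Aohan minus small tail Han) with its 95% interval for the 15 tested genes of the pathway lists, 1 probe per gene, and for the other IGF2 probe (red, IGF2, IGFBP1 and GHR; filled, adjusted p under 0.05). IGF2 A_70_P016796 (1.12) and CDKN1C (-0.73) passed, and the 3 binding proteins lie at -0.80, -0.43 and -0.46.

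In the lists of signalling downstream of the receptors, 0 of 3 tested genes passed, beside 15.2% of all tested probes. STAT5A, the transcription factor that GHR activates, had a difference of 0.07 (limma adjusted p = 0.836) at 1 probe, while the other gave -0.41 (adjusted p = 0.448). The kinase AKT1 was at 0.13 (adjusted p = 0.732) and the 14-3-3 protein SFN at 0.07 (adjusted p = 0.896). The same SFN probe is also counted among the keratinocyte markers below. AKT1 changed sign with normexp (-0.12) and before the surface correction (-0.19), and SFN likewise (-0.10 and -0.11). In the list of imprinted genes 1 of 2 tested genes was lower in Aohan sheep, beside the same 15.2% that passed in either direction. This was CDKN1C, a cell cycle inhibitor whose gene lies in the same imprinted region as IGF2 in mammals. It differed by -0.73 (SE 0.14, adjusted p = 0.0115) with no overlap between the breeds, and the call was lost when small tail Han replicate 2 was left out (adjusted p = 0.0709). Over the whole array 348 probes were higher and 441 lower without that replicate, in place of 945 and 948. BEGAIN had differences of opposite sign, 0.48 (adjusted p = 0.440) and -0.75 (adjusted p = 0.241), at its probes, which were 0.12 and -0.29 with normexp, and the former was 0.14 without small tail Han replicate 2 and 0.82 without small tail Han replicate 3.

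The genes nearest to a member in their course over the 6 sheep were ranked by the root mean square distance between mean-centred log2 signals, among 611 named probes. For IGF2 A_70_P029956 these were SFTPC, a surfactant protein, at a distance of 0.15, the cytokine IL5 (0.20), the lymphocyte receptor SLAMF1 (0.20), the prion protein PRNP (0.21) and the cytokine IL10 (0.21), where the median distance of named probes was 0.54. Each of these 5 was lowest in small tail Han replicate 1, as was IGF2. For GHR they were CD14, a monocyte receptor (0.35), CTLA4, a receptor on T cells (0.39), and albumin at its probe A_70_P051001 (ALB, 0.40). The myeloid integrin ITGAM (0.41) and beta-actin (ACTB, 0.41) came next, where the median distance was 0.71. Each of these 5 was highest in Aohan replicate 1, as was GHR. IGFBP1 was not above background on all arrays and was not ranked. These distances come from 6 arrays and describe the course of the signals only.

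**Figure D5:**
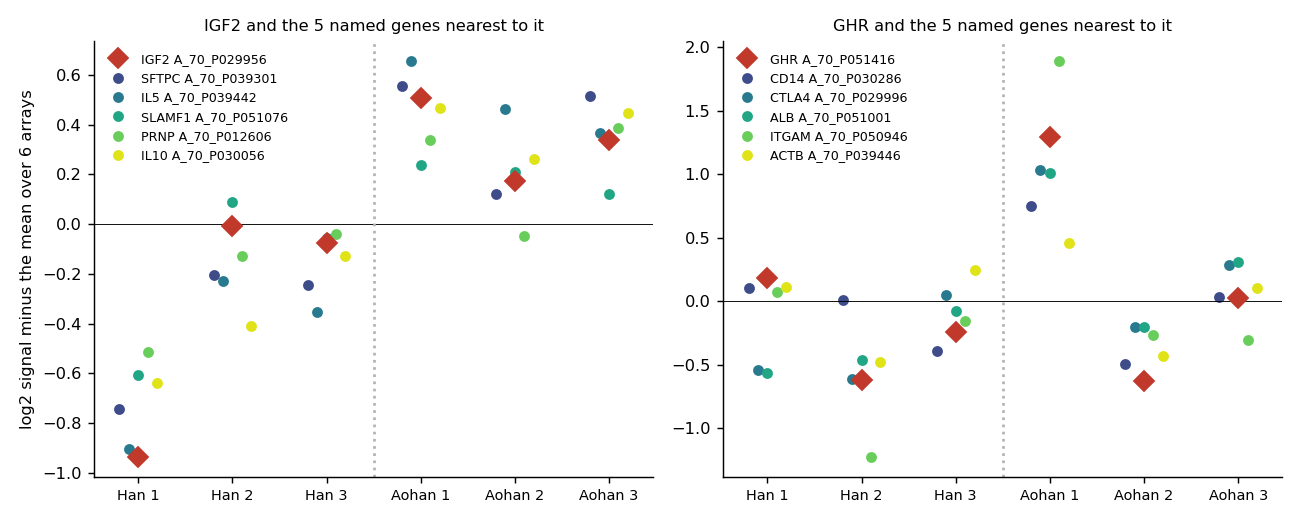
Log2 signal minus the mean over the 6 arrays in each sheep for IGF2 A_70_P029956 and GHR (red diamonds) and the 5 named genes nearest to each (circles; 3 sheep per breed, which have no order). Small tail Han replicate 1 is the lowest array for IGF2 and its 5 neighbours, and Aohan replicate 1 is the highest for GHR and its 5 neighbours.

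Markers of cell types that the skin could hold moved with the breeds in some lists. Of 6 tested blood cell genes 4 were higher in Aohan sheep in limma and 0 lower, beside 15.2% of all tested probes that passed in either direction. These were the lysozyme LYZ (difference 2.44, adjusted p = 0.00729), the T cell receptor subunits CD3E (1.11, adjusted p = 0.0135) and CD3D (0.92, adjusted p = 0.0362) and the leukocyte integrin ITGB2 (0.95, adjusted p = 0.0108). The other probes of LYZ, CD3E and ITGB2 also passed, while that of CD3D did not (0.73, adjusted p = 0.0880). The red cell gene HBB was at -0.83 (adjusted p = 0.171). CD14 was at 0.19 (adjusted p = 0.721), and at -0.31 (adjusted p = 0.420) at its other probe. The median signal of the list ranged from -1.22 to -0.92 in small tail Han sheep and from -0.75 to -0.40 in Aohan sheep. Of 4 genes of liver, where IGFBP1 is chiefly made, 2 were lower, beside the same 15.2%. These were the thyroid hormone carrier TTR (-3.67, adjusted p = 0.000869), which was well above background on 1 of 3 Aohan arrays, and the plasma protein AHSG (-0.97, adjusted p = 0.0174). The other AHSG probe did not pass (-0.63, adjusted p = 0.163), and the breeds overlapped there. SERPINA1 was at 0.18 (adjusted p = 0.568). ALB was at -0.14 (adjusted p = 0.765) at its chosen probe and at 0.74 (adjusted p = 0.166) at A_70_P051001, the probe ranked near GHR above. The liver list's median ranged from -0.29 to 0.42 in small tail Han sheep and from -0.87 to -0.18 in Aohan sheep. Of 5 muscle genes 0 passed at the chosen probe and 1 was lower at any probe (TNNC2, -1.37, adjusted p = 0.0219), with medians of -4.21 to -3.99 and -4.66 to -3.96. Of 5 genes of fat and sebaceous cells 1 was lower (DGAT1, -0.65, adjusted p = 0.0159), of 7 of fibroblasts 1 was higher (SERPINF1, 1.26, adjusted p = 0.0110), and of 3 of keratinocytes 0 passed, beside the same 15.2%. The other DGAT1 probe did not pass (-0.59, adjusted p = 0.0831). The part of these cells in the differences of IGF2 and IGFBP1 was not tested.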

How the data were processed

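Skin RNA of 6 sheep was hybridised to 1-colour Agilent arrays. Per the file headers and the submitters' processing notes, Agilent Feature Extraction 10.5.1.1 gave the deposited intensity values. Another version is named in the paper's methods. The values were background-subtracted per spot and not normalized between arrays, with a surface correction on 4 of the 6 arrays. These 4 were all Aohan arrays and small tail Han replicate 1, so the correction was largely tied to breed. Log2 values in the deposited series matrix were normalized by the authors, by a method not given in the sources used here, and all 6 columns have a median of 8.31.

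Control and outlier spots were dropped, spots of 1 probe were averaged, and log2 signals were set relative to the 75th percentile over the non-control probes of the array. The test was limma 3.58.1, run in R 4.3.3 (intensity trend, two-sided, no covariate), tested on simulated data. Tested probes needed at least 3 arrays well above background and at least 2 values per breed. Names came from RefSeq accessions, with 734 of 758 found in assembly ARS-UI_Ramb_v3.0. Each array is 1 animal, and the number of arrays limits the precision.

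Members and lists were chosen with earlier results of these data known, and 1 gene was left out of the pathway lists and is not reported here. Named are all member probes, pathway genes that passed, up to 3 others per pathway list by p, the 5 nearest genes and, chosen after their values were seen, untested list genes and further probes. For each marker list the rule also allowed its brightest genes, of which KRT25, KRT27 and DCN are named, and the other marker genes were named after their values were seen. Alternatives were quantile normalization, normexp (offset 50, on median signals since means were not used here), the series matrix, other filters, no trend, a replicate block, the methods' t-test, each array left out and, added later, intensities before the surface correction.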

Additional observations from a re-analysis of the deposited data

How the results depend on the processing

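IGF2 A_70_P016796 kept its direction under 15 alternatives (0.83 to 1.28) and passed in 14. The exception was the methods' t-test with a Benjamini-Hochberg adjustment in place of the paper's permutations (1.12, adjusted p = 0.0570). IGF2 A_70_P029956 kept its direction under the same 15 (0.38 to 0.85) and passed in 4: quantile normalization (0.78), normexp (0.85), the series matrix values (0.70) and intensities before the surface correction (0.84). IGFBP1 kept its direction under 14 (-1.01 to -0.27) and passed in 0, while GHR passed in 0 of 15 and turned to -0.071 without Aohan replicate 1. Leaving out 1 array gave 0.95 to 1.22 and 0.38 to 0.85 at the IGF2 probes, -1.01 to -0.69 at IGFBP1 and -0.071 to 0.89 at GHR. Of the 15 pathway genes, 1 passed as reported (15.2% of all tested probes). With quantile normalization (17.3%), the series matrix values (16.7%) and before the surface correction (14.9%) 2 passed, and 3 did with normexp (13.8%). With 1 array left out 0 to 2 passed. The 0 came without small tail Han replicate 2, where 348 probes were higher and 441 lower over the whole array. The 2 came without small tail Han replicate 1 (1230 and 1018) or Aohan replicate 2 (664 and 783). The excess of the difference at IGF2 A_70_P016796 over that at the other IGF2 probe turned to -0.030 with normexp and ran from 0.19 to 0.71 with 1 array left out. Of 265 values at the other 18 pathway probes 11 changed sign. With normexp and before the surface correction these were -0.12 and -0.19 at AKT1 and -0.10 and -0.11 at SFN. With 1 array left out, differences ran from -0.017 to 0.23 at AKT1, -0.037 to 0.25 at PRL A_70_P030241, -0.027 to 0.18 at STAT5A A_70_P039386, -0.092 to 0.30 at SFN and -0.11 to 0.33 at IGF1. The cause was not tested. The labels do not say whether the replicate numbers pair animals. Correlations of same-numbered deviations were -0.22, -0.37 and 0.28, and those of other pairs ran from -0.30 to 0.47, which with 3 arrays per breed cannot decide it. With the number as a block in limma, the IGF2 probe A_70_P016796 had an adjusted p of 0.0247 and the other 3 probes did not pass. Over the whole array 565 probes were then higher and 669 lower in place of 945 and 948. Raw signal was under 5 times the local background on every array at IGFBP1 and GHR, which limits their precision. At IGF2 A_70_P016796 it was little higher in small tail Han sheep, at 4.91 to 5.44 times.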
